A study of Homo sapiens with 6 samples.

Results

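The 9 genes described here handle sulfur between homocysteine and glutathione: CBS, CTH and MPST of transsulfuration and cysteine use, the cystine importer SLC7A11, the glutathione synthesis genes GCLC, GCLM and GSS, and the glutathione-degrading enzymes CHAC1 and CHAC2. They were chosen by name from the pathway, out of 58523 genes with a matched transcript. All 9 were among the 22580 genes that passed the filter on low counts. RNA was sequenced from A375, an established human melanoma cell line grown in a medium with fetal bovine serum, penicillin and streptomycin. The control group was 3 untreated cultures (replicates 1 to 3), and the treated group was 3 cultures given hMGL, an engineered human enzyme that degrades methionine, for 24 h (replicates 4 to 6). The labels call the cultures independent and give no dose of the enzyme.

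Methionine is turned into S-adenosylmethionine and then homocysteine, which can be methylated back to methionine or passed to transsulfuration. CBS joins homocysteine with serine to give cystathionine, and CTH splits cystathionine to give cysteine. Cells in culture also take up cystine, the oxidised pair of cysteines, through the exchanger of SLC7A11 and SLC3A2, which releases glutamate. Cysteine is the scarce building block of glutathione, made by glutamate-cysteine ligase and then glutathione synthetase. Many genes of cysteine supply are known targets of ATF4, the transcription factor of the amino acid response, or of NRF2, the factor of the oxidative stress response.

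Libraries held 50760266 to 59954677 estimated counts, and the member genes took 295 to 6199 of these in a library. Levels between groups are given as CPM, counts divided by library size after scaling with the TMM method, and levels between genes as TPM. TPM also divides by effective length, an estimate for each transcript and library that exceeded the transcript's own length for 25.6% to 27.1% of transcripts. Each gene was tested with edgeR (quasi-likelihood), its p was adjusted by Benjamini-Hochberg across the whole table of genes, and it counted as changed under 0.05. Every fold change is relative to the typical gene of the library, and in such bulk RNA fewer cells and less RNA per cell cannot be told apart. The melanoma markers SOX10 and S100B were present in controls at 417.4 ± 31.4 and 38.6 ± 0.831 CPM (SD, n = 3), while the pigment genes MLANA, PMEL and TYR were at 0.922 ± 0.0845, 0.556 ± 0.0505 and 0.0634 ± 0.0406 CPM.

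The members split into large rises, small rises and falls. CHAC1 was 15.4-fold higher and CTH 6.44-fold higher in treated cells, SLC7A11, CHAC2 and CBS were higher by 1.301-fold or less, GCLM, MPST and GCLC fell, and GSS did not pass the threshold. That is 8 of 9 past the threshold, 5 higher and 3 lower, where 69.4% of all genes tested passed, 34.9% higher and 34.5% lower. DESeq2 called the same 5 higher and 3 lower, beside 63.5% of all genes, 32.6% higher and 30.8% lower. The treated and control libraries did not overlap for 8 of the 9 members, and for 73.3% of all genes tested. The median log2 fold change was 0.21 over the 9 members and −0.015 over all genes. With so many genes past the threshold a call alone sets a member little apart, and the sizes are given beside it. A log2 fold change at least as large as that of CHAC1 in either direction was found for 0.802% of the genes tested, against 2.87% for CTH, 21.0% for GCLM and 85.0% for CBS.

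**Figure D1:**
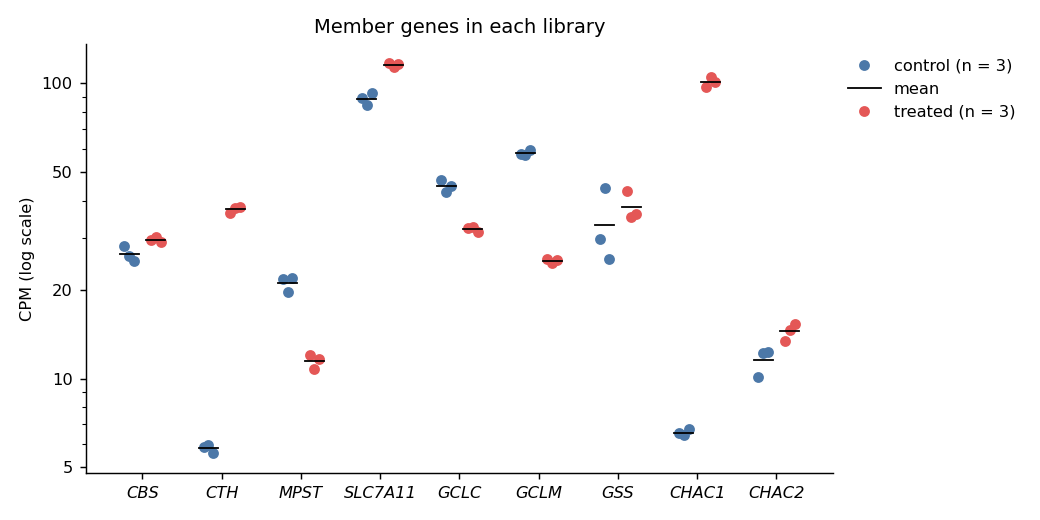
Level of each member gene in CPM (log axis) in the 3 control and the 3 treated libraries, with a point per library and a line at the group mean. CHAC1 and CTH separate widely, GCLM and MPST lie lower in treated libraries, and GSS is the only gene whose groups overlap.

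In transsulfuration the enzymes moved unequally. CTH (cystathionine gamma-lyase, ENSG00000116761, chromosome 1 at 70411218 to 70439851) makes cysteine from cystathionine. It was measured at 5.88, 5.94 and 5.58 CPM in controls 1 to 3 and at 36.5, 37.8 and 38.0 CPM in treated replicates 4 to 6. The groups lay far apart and each was tight, with a log2 fold change of 2.69 ± 0.052 (SE; adjusted p = 1.60e-17 in edgeR).

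CBS (cystathionine beta-synthase, ENSG00000160200, chromosome 21 at 43053191 to 43076943) makes the cystathionine that CTH uses. It was at 28.0, 26.0 and 25.0 CPM in controls and 29.4, 30.1 and 29.1 CPM in treated libraries. The groups did not overlap but were close, at a log2 fold change of 0.16 ± 0.046 (adjusted p = 0.00453 in edgeR). The annotation holds a near-identical copy, CBSL (ENSG00000274276, chromosome 21 at 6444869 to 6468040), which the RefSeq table lists as another name of CBS. Their transcripts CBS-202 and CBSL-203, both 2353 bases long, differ at 1 base, so reads shared between them cannot be assigned with certainty. CBSL was at 16.6, 18.5 and 19.0 CPM in controls and 24.4, 23.2 and 22.2 CPM in treated libraries. With both summed, the level was 44.4 ± 0.329 CPM in controls and 52.8 ± 1.36 CPM in treated cells, a log2 fold change of 0.25 ± 0.036 (adjusted p = 8.51e-06 in edgeR). The value for CBS alone ranged from 0.13 to 0.34 over other settings and left-out libraries, the highest with limma on log2(TPM + 0.1).

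MPST (mercaptopyruvate sulfurtransferase, ENSG00000128309, chromosome 22 at 37019635 to 37029822) moves sulfur from 3-mercaptopyruvate, a product of cysteine, to thiols and so contributes to sulfide production. It went the other way. Its level was 21.7, 19.7 and 21.8 CPM in controls and 12.02, 10.8 and 11.6 CPM in treated libraries, 1.84-fold lower (log2 fold change −0.88 ± 0.062, adjusted p = 6.93e-10 in edgeR). All treated libraries lay below all controls.

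The ratio of CTH to CBS in TPM, which does not depend on the scaling between libraries, was 0.656, 0.562 and 0.557 in controls and 2.83, 2.88 and 3.42 in treated libraries. With CBSL added to CBS it was 0.325 ± 0.0550 and 1.59 ± 0.187 (SD, n = 3). In TPM, CTH therefore went from the lower to the higher of both transcript levels in each case. In CPM, CBS and CBSL summed stayed above CTH in treated cells, at 52.8 ± 1.36 against 37.4 ± 0.812. An exact permutation test of either ratio gave p = 0.1, two-sided, the smallest value that 3 against 3 libraries allow.

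SLC7A11 (xCT, the light chain that carries cystine in and glutamate out, ENSG00000151012, chromosome 4 at 138164097 to 138242349) had the highest CPM of the members. It was at 89.2, 84.1 and 92.8 CPM in controls and 116.6, 113.6 and 116.1 CPM in treated libraries, 1.301-fold higher (log2 fold change 0.38 ± 0.036, adjusted p = 4.33e-08 in edgeR). The treated libraries were above the controls without overlap. SLC3A2, the heavy chain that brings SLC7A11 and several other amino acid transporters to the cell surface, was at 203.4, 203.7 and 191.8 CPM in controls and 974.2, 951.7 and 927.0 CPM in treated libraries, a log2 fold change of 2.25 ± 0.032. The ratio of SLC7A11 to SLC3A2 in TPM went from 0.0901 ± 0.00427 to 0.0254 ± 0.000817, and the groups did not overlap (exact permutation p = 0.1, the smallest possible).

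Of the glutathione synthesis genes GCLC and GCLM fell, and GSS did not pass the threshold. GCLC (ENSG00000001084, chromosome 6 at 53497341 to 53616970) encodes the catalytic subunit of glutamate-cysteine ligase, the rate-limiting enzyme of the pathway. It was at 46.9, 42.9 and 45.0 CPM in controls and 32.4, 32.5 and 31.5 CPM in treated libraries, 1.40-fold lower (log2 fold change −0.48 ± 0.040, adjusted p = 5.26e-09 in edgeR). The groups were apart in CPM, but in TPM the lowest control (19.2) lay below the highest treated library (19.8). On the scale of log2(TPM + 1) the difference was smaller, at −0.28 (adjusted p = 0.0282 in limma, the highest p over all settings tried).

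GCLM (ENSG00000023909, chromosome 1 at 93885205 to 93909456) encodes the modifier subunit, which makes the ligase more active and less sensitive to inhibition by glutathione. Its level was 57.6, 56.9 and 59.2 CPM in controls and 25.3, 24.6 and 25.1 CPM in treated libraries, 2.31-fold lower (log2 fold change −1.21 ± 0.037, adjusted p = 4.77e-15 in edgeR). Each group was tight, and GCLM had the deepest fall of the members. The ratio of GCLC to GCLM in TPM, over all transcripts of each gene, was 1.21 ± 0.131 in controls and 1.96 ± 0.0396 in treated cells (SD, n = 3). The groups did not overlap (exact permutation p = 0.1, the smallest possible). Both sums include noncoding transcripts, GCLC-211 with 41.6% of GCLC and GCLM-203 with 18.8% of GCLM in controls. A ratio of coding transcripts alone was not computed.

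GSS (glutathione synthetase, ENSG00000100983, chromosome 20 at 34928433 to 34956027) adds glycine in the last step. It was at 29.8, 44.2 and 25.3 CPM in controls and 43.2, 35.2 and 36.1 CPM in treated libraries. Control replicate 2 was above every treated library and the other controls were below, so the groups overlapped. The log2 fold change was 0.21 ± 0.254 (adjusted p = 0.520 in edgeR). Without control replicate 2 it was 0.47 and passed (adjusted p = 0.0407, against up to 0.886 when another library was left out). With an offset for effective transcript length it was −0.11, and with protein-coding transcripts only −0.083.

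Glutathione breakdown held the largest rise. CHAC1 (ENSG00000128965, chromosome 15 at 40952962 to 40956519) encodes a gamma-glutamylcyclotransferase that splits glutathione in the cytosol into oxoproline and cysteinylglycine, and it is a known target of ATF4. It was at 6.54, 6.42 and 6.72 CPM in controls and 97.0, 104.8 and 100.6 CPM in treated libraries. No treated library came near a control, and the log2 fold change was 3.94 ± 0.045 (adjusted p = 2.96e-20 in edgeR).

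CHAC2 (ENSG00000143942, chromosome 2 at 53767792 to 53775196) encodes a related enzyme with the same reaction and lower activity. It was at 10.1, 12.2 and 12.3 CPM in controls and 13.4, 14.6 and 15.2 CPM in treated libraries. The groups were next to each other without overlap, at a log2 fold change of 0.32 ± 0.079 (adjusted p = 0.00196 in edgeR). The ratio of CHAC1 to CHAC2 in TPM was 0.189, 0.157 and 0.163 in controls and 2.16, 2.13 and 1.95 in treated libraries (exact permutation p = 0.1, the smallest possible). CHAC2 was thus the more abundant transcript of the pair in every control and CHAC1 in every treated library.

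**Figure D2:**
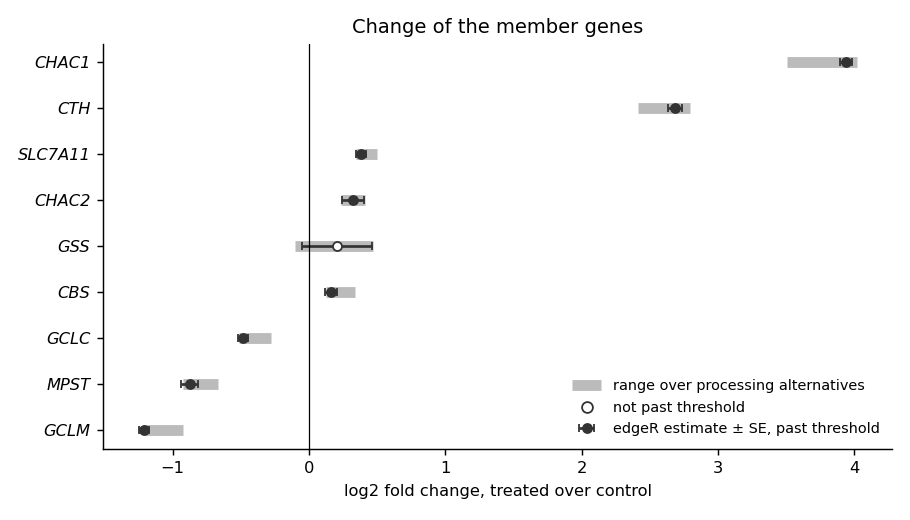
Log2 fold change, treated over control, of each member gene with its standard error (points, filled where the adjusted p is under 0.05) and its range over the other settings and left-out libraries (grey bars). The range of GSS crosses 0, and those of the other 8 genes do not.

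Ordered by TPM, the members changed places. In controls the order of mean TPM was GCLC (22.1 ± 2.55), GCLM (18.3 ± 2.07), GSS (13.5 ± 3.84), CHAC2 (12.3 ± 1.26), SLC7A11 (10.4 ± 0.465), MPST (9.47 ± 0.656), CBS (6.34 ± 0.974), CTH (3.78 ± 0.868) and CHAC1 (2.08 ± 0.0809; SD, n = 3). Neighbours from GCLC down to CHAC2 overlapped between libraries, as did SLC7A11 and MPST. The other neighbours did not overlap. In treated cells the order was CHAC1 (34.0 ± 1.71), CTH (24.2 ± 0.801), GCLC (18.0 ± 1.61), CHAC2 (16.3 ± 0.202), SLC7A11 (14.8 ± 1.33), GSS (13.5 ± 3.38), GCLM (9.16 ± 0.667), CBS (8.003 ± 0.647) and MPST (5.60 ± 0.479). There CHAC2, SLC7A11 and GSS overlapped with their neighbours in that run, and no other neighbours did. The members with the lowest TPM in controls, CHAC1 and CTH, were the ones with the highest TPM after treatment. In CPM, which does not divide by length, SLC7A11 stayed highest, at 115.4 ± 1.63 in treated cells. The order thus rests on the estimated effective lengths, and gene TPM sums noncoding transcripts too. CBS was ranked without its near-identical copy CBSL, which was at 5.23 ± 0.774 TPM in controls and 7.34 ± 0.823 TPM in treated cells. The place of CBS therefore depends on how shared reads were split and would be higher with CBSL added. TPM is shared out within a library, and the abundant noncoding RNA RN7SL1 held 16.1% to 19.4% of the TPM of controls and 18.5% to 22.1% of that of treated libraries.

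**Figure D3:**
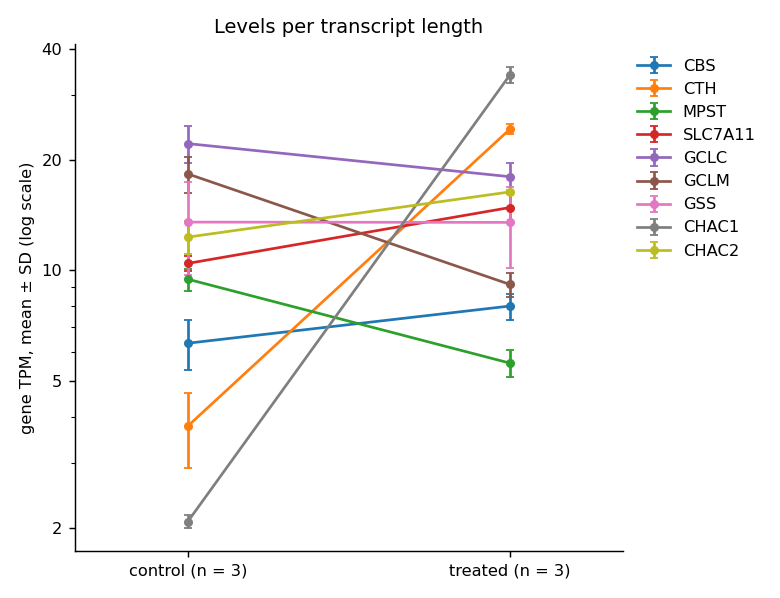
Mean TPM (log axis, error bars are SD over 3 libraries) of each member gene in control and treated cells, joined by a line per gene. CHAC1 and CTH go from the bottom of the order to the top, and GCLM and MPST drop. CBS is shown without its copy CBSL.

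Isoforms were read from the same tables, with the caution that the error of sharing reads between transcripts of a gene is not in the files. The deposited lengths of CTH-202, CBS-204, MPST-206, GCLM-201, CHAC1-204 and CHAC2-201 differ from those in GENCODE 29, and the deposited lengths are the ones given. Of 81 transcripts of the 9 members, 53 passed the filter on low counts and 12 of these passed the threshold, 6 higher and 6 lower, where 30.3% of all transcripts tested passed, 16.4% higher and 13.9% lower. The rises of CHAC1 and SLC7A11 each rested on a single coding transcript. CHAC1-204 (1520 bases) was at 2.10, 1.96 and 1.78 TPM in controls and 34.7, 33.2 and 31.2 TPM in treated libraries (log2 fold change 4.01 ± 0.053, adjusted p = 1.94e-06 in edgeR over transcripts). It held 93.7% ± 5.53 of the gene's TPM in controls and 97.3% ± 0.476 in treated cells (SD, n = 3). SLC7A11-201, with 9645 bases, held 98.3% ± 1.49 and 96.7% ± 0.993. CHAC2 has 1 transcript in the tables, CHAC2-201, which did not pass among transcripts with edgeR (log2 fold change 0.35 ± 0.109, adjusted p = 0.0604).

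For CTH, the full-length coding transcript CTH-202 (2090 bases) was at 2.37, 2.46 and 2.04 TPM in controls and 15.5, 15.4 and 14.2 TPM in treated libraries (log2 fold change 2.65 ± 0.073). Its share of the gene was 62.0% ± 9.86 in controls and 62.2% ± 4.82 in treated cells. The shorter coding transcript CTH-201 (1196 bases) was listed at 0, 0 and 0.225 TPM in controls and at 6.56, 3.47 and 4.48 TPM in treated libraries (adjusted p = 0.0286 in edgeR), 19.9% ± 6.32 of the gene there. The share of CTH-201 did not overlap between groups (exact permutation p = 0.1, the smallest possible), while that of the short noncoding CTH-205 did.

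The fall of GCLM was seen in its long coding transcripts, while for GCLC only 1 transcript, GCLC-215, passed the threshold. GCLM-201 (4883 bases) was at 10.2, 9.96 and 9.02 TPM in controls and 4.61, 4.23 and 4.66 TPM in treated libraries (log2 fold change −1.18 ± 0.070, adjusted p = 0.000126 in edgeR). GCLM-204 (3008 bases) was at 4.57, 4.43 and 4.62 TPM and at 2.64, 1.98 and 1.28 TPM (log2 fold change −1.296 ± 0.224, adjusted p = 0.00834), so both coding forms were lower. GCLC-215 (3785 bases) was at 4.10, 3.27 and 3.80 TPM in controls and 2.32, 2.23 and 2.11 TPM in treated libraries (−0.81 ± 0.119, adjusted p = 0.00421). GCLC-208, a shorter coding transcript, had a log2 fold change of 0.031 ± 0.244 and did not pass. Nor did the coding GCLC-214 (2289 bases), at −0.97 ± 0.628 (adjusted p = 0.309 in edgeR). The transcript of GCLC with the highest TPM was GCLC-211, a noncoding transcript of 553 bases, with 41.6% ± 1.20 of the gene in controls and 42.2% ± 2.45 in treated cells.

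MPST-206 (1350 bases, coding) was at 2.77, 2.20 and 2.44 TPM in controls and 2.11, 1.46 and 1.25 TPM in treated libraries (log2 fold change −0.69 ± 0.190, adjusted p = 0.0402 in edgeR). It did not pass with limma on log2(TPM + 0.1), at −0.61 (adjusted p = 0.0785). MPST-208, the transcript with the highest mean TPM, was at 4.50, 3.97 and 4.53 TPM and at 1.10, 2.34 and 2.95 TPM, below the controls in every treated library but spread too widely to pass (adjusted p = 0.116). The minor forms MPST-207 and MPST-202 of low level also passed, at log2 fold changes of −1.49 and −1.55, and were named after their values were seen. None of the 11 tested transcripts of CBS passed with edgeR. The main one, CBS-204, had a log2 fold change of 0.26 ± 0.103 (adjusted p = 0.120 in edgeR). CBS-202 went the other way, at −1.06 ± 0.323 (adjusted p = 0.0566 in edgeR).

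GSS was divided over more transcripts than any other member, with 24 of 27 holding counts. The coding GSS-206 was at 0.0675, 7.21 and 0.146 TPM in controls and 3.34, 0.153 and 0 TPM in treated libraries. It was high in 1 library of each group and near 0 in the others, and the libraries were control replicate 2 and treated replicate 4, the ones with the highest summed GSS. Left out of the sum, a choice made after its values were seen, GSS was at 29.6, 21.6 and 24.8 CPM in controls and 33.7, 34.6 and 36.1 CPM in treated libraries, and no test is given for it. The retained-intron transcript GSS-222 was at 0.704, 1.32 and 0.533 TPM in controls and 3.01, 2.23 and 2.10 TPM in treated libraries (log2 fold change 1.47 ± 0.319, adjusted p = 0.0194 in edgeR). GSS-209, annotated as a target of nonsense-mediated decay, was listed at 0 in all 3 controls and at 1.31, 1.14 and 0.753 TPM in treated libraries (adjusted p = 0.000927 in edgeR). The GSS transcripts that passed were therefore noncoding or decay forms. GSS-224, the noncoding transcript with the highest mean TPM, did not pass (log2 fold change −0.49 ± 0.398, adjusted p = 0.415 in edgeR). Nor did the coding GSS-218 (1.77 ± 1.38, adjusted p = 0.398).

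**Figure D4:**
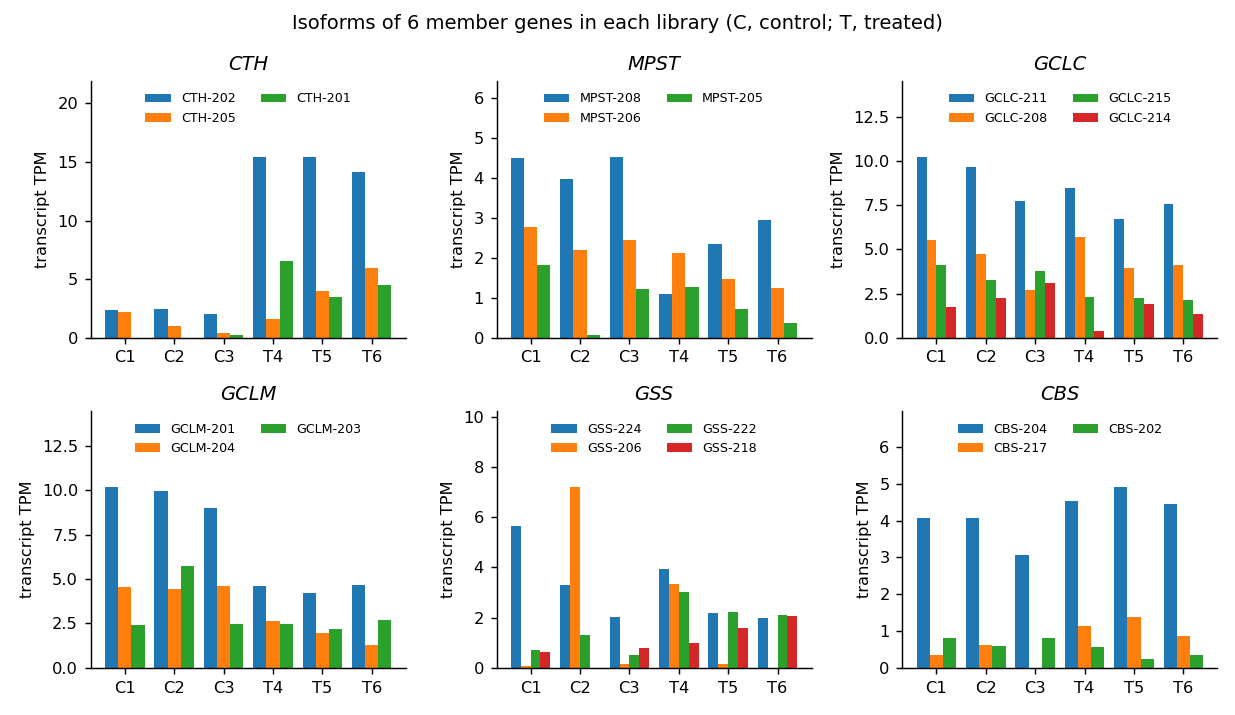
TPM of the transcripts that hold at least 10% of their gene's TPM in either group, in each control (C) and treated (T) library, for CTH, MPST, GCLC, GCLM, GSS and CBS. CTH-202 rises in all treated libraries, GCLM-201 falls, and GSS-206 is high only in C2 and T4.

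Promoter sequences are shown for the largest rises, CHAC1 and CTH, and the deepest fall, GCLM, to set their letters beside their changes. They are the 250 bases before the RefSeq start of each gene (GRCh38.p14), 5′ to 3′ on the strand of the gene, at chr15:40953221-40953470 (+), chr1:70411018-70411267 (+) and chr1:93909431-93909680 (−). The RefSeq starts differ from the gene positions given above. The CHAC1 window lies wholly inside the span given for that gene, and those of CTH and GCLM partly overlap theirs. Capitals mark matches, on either strand, to TGATGNAA (the core that C/EBP and ATF4 dimers bind, the CARE), TGACNNNGC (the antioxidant response element core that NRF2 binds), TGACGTCA (the CRE) or CACGTG (the E-box).
CHAC1: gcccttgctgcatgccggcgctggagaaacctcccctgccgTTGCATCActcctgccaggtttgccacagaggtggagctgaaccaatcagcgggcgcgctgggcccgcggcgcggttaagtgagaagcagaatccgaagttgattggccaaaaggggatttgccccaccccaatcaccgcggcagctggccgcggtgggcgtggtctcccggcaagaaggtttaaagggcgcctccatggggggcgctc
CTH: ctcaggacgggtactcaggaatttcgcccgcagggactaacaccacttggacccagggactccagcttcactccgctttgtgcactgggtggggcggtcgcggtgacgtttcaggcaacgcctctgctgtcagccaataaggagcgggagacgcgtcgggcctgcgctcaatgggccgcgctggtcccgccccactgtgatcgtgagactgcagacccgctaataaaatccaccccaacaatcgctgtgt
GCLM: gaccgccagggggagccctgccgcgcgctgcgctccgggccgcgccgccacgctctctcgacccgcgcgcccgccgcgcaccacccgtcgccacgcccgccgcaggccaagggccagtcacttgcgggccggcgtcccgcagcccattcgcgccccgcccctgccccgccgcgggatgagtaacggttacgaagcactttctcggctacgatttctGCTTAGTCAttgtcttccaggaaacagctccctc

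CHAC1 had a CARE match on the strand opposite to the gene, 209 to 202 bases before the RefSeq start. Of 35116 RefSeq promoter windows of this length, 3.14% hold that motif. GCLM had a match to the antioxidant core, 34 to 26 bases before the start, a motif in 10.9% of windows. A window of CBS also had such a match, 83 to 75 bases before its start. CTH had none of the 4 motifs in this window, nor did GCLC or CHAC2 in theirs. The CRE was in 1.65% and the E-box in 6.34% of windows. Windows were available for 6 of the 9 members, and there was none for MPST, GSS or SLC7A11. A match is a description of the letters and not a measured site.

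Listed regulators of the ATF4 and NRF2 branches, activators and inhibitors together, were mostly higher. Their part in the members' changes was not tested. Of 12 listed regulators, all tested, 11 rose and 1 fell, with a median log2 fold change of 1.303. Over all genes tested, 34.9% were higher and 34.5% lower. ATF4 rose by 0.59 ± 0.144, from 9.67 ± 1.63 to 14.6 ± 1.62 CPM, in the transcripts that could be matched. CEBPG, a C/EBP partner of ATF4, rose by 3.58, DDIT3 (CHOP) by 3.99 and ATF3 by 4.76. In the other branch NFE2L2, which encodes NRF2, rose by 0.091 ± 0.037 (59.8 ± 2.31 to 63.7 ± 1.26 CPM, adjusted p = 0.0391 in edgeR), KEAP1, its inhibitor, fell by 0.097, and BACH1, a repressor of NRF2 target genes, rose by 1.25. CEBPG and BACH1 were chosen for naming after their values were seen.

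Enzymes that use up cysteine and sulfide were split, with 3 of 13 tested higher, 6 lower and 4 not past the threshold (median −0.14). The shares over all genes tested were 34.9% higher and 34.5% lower. ADO, which oxidises cysteamine and cysteine residues, rose by 2.17 and GOT1, the cytosolic aspartate aminotransferase that can also transaminate cysteine, by 1.69. SUOX, sulfite oxidase, fell by 1.04, from 29.5 ± 1.16 to 14.4 ± 0.549 CPM, and KYAT3 and KYAT1, kynurenine aminotransferases that also act on cysteine conjugates, fell by 1.44 and 1.24. Cysteine dioxygenase CDO1 rose by 0.52 at a low level (1.45 ± 0.0901 to 2.07 ± 0.205 CPM).

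Among transporters of cystine, cysteine and glutamate other than SLC7A11, 4 of 9 tested were higher, 2 lower and 3 not past the threshold (median 0.23). These counts stand beside 34.9% higher and 34.5% lower of all genes tested. Besides SLC3A2 the higher ones were the neutral amino acid exchangers SLC1A4 (1.19) and SLC1A5 (1.08) and the lysosomal cystine exporter CTNS (0.41). SLC1A1, a glutamate and cysteine importer, fell from 22.8 ± 0.892 to 2.57 ± 0.419 CPM, 8.86-fold, and MFSD12, which carries cysteine into lysosomes and melanosomes, fell by 0.71.

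Among genes listed for the outer cycle and breakdown of glutathione, inside and outside the cell, 2 of 9 tested were higher and 5 lower. Another 2 missed the threshold (median −0.14). Of all genes tested 34.9% were higher and 34.5% lower. GGT1, the surface enzyme that starts glutathione breakdown outside the cell, rose by 1.79 but from 0.605 ± 0.0567 to 2.10 ± 0.217 CPM, and it has related copies that can share its reads. GGCT, which acts after it on gamma-glutamyl amino acids, fell by 0.86, and the peptidases LAP3 and ANPEP by 0.94 and 0.93. GGCT went from 72.5 ± 2.16 to 39.99 ± 0.726 CPM, while the cyclotransferases CHAC1 and CHAC2 rose.

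Genes listed with glutathione reduction, use and transport went both ways, beside 34.5% lower and 34.9% higher of all genes tested. Of 13 in the list of reductases, peroxidases and glutaredoxins, 6 were lower, 3 higher and 4 not past the threshold (median −0.55). GSR, glutathione reductase, fell from 66.8 ± 2.62 to 26.95 ± 0.651 CPM, 2.48-fold. TXNRD1, a thioredoxin reductase kept in this list, fell by 0.73 and PRDX6 by 0.71 on the log2 scale. The glutaredoxins GLRX2 and GLRX5 rose by 0.38 and 0.36. Of 13 tested glutathione transferases, 11 fell and 2 rose (median −0.60), with GSTM1, which shares sequence with its close relatives, down by 1.80 and GSTP1 by 0.51, and GSTO2 up by 1.15. Of 7 glutathione carriers, 5 fell and 2 rose (median −0.59). The exporters ABCC2 and ABCC5 fell by 1.20 and 1.10, the mitochondrial importer SLC25A39 by 0.41, and ABCC4 and ABCC1 rose by 0.48 and 0.24.

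**Figure D5:**
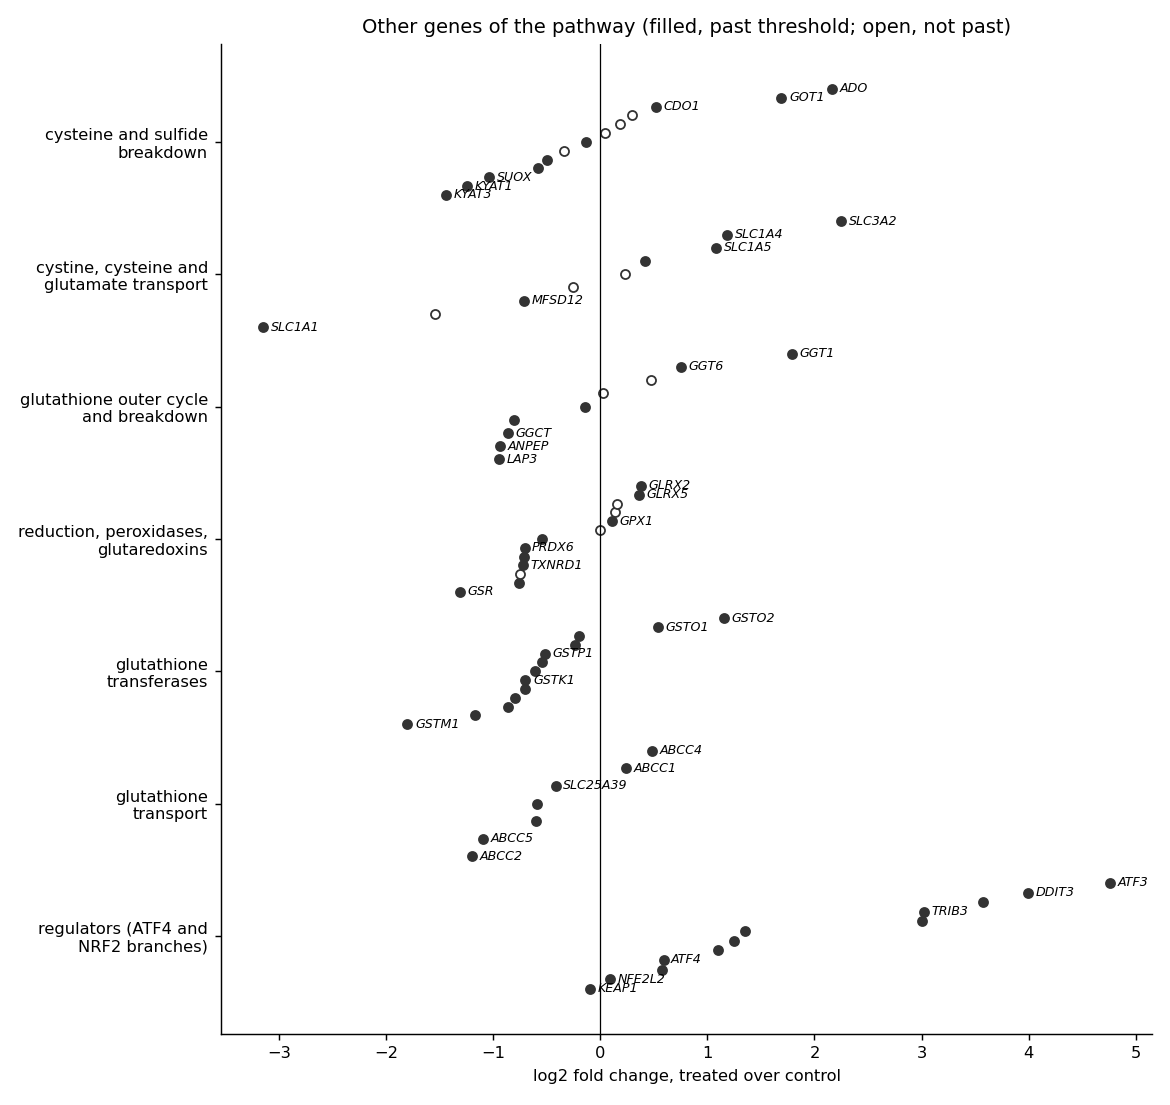
Log2 fold change, treated over control, of each tested gene in 7 lists of the pathway outside the 9 members, with a point per gene, filled where the adjusted p is under 0.05 and labelled where the gene was named by rule. Transferases and reductases lie mostly left of 0, and all regulators but KEAP1 lie right of it.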

How the data were processed

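Total RNA of 3 untreated and 3 hMGL-treated A375 cultures was sequenced (Illumina). Per the file headers, the authors deposited estimated counts and TPM for each transcript with its length and effective length. Versions 0.45.0 of kallisto and 1.30.0 of DESeq2 are listed, with no role, in the submitters' processing notes. The genome build and transcript index are not given in the sources used here.

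Of 244939 transcripts, 203436 were matched by identifier to GENCODE 29 (GRCh38) and summed to genes. The others, 4.86% to 5.13% of counts, were left out, so a gene's level can be a part of its total, members included. The deposited length differs from that in GENCODE 29 for 12.3% of matched transcripts and for 1 transcript each of CTH, CBS, MPST, GCLM, CHAC1 and CHAC2. The index was thus not this release, and TPM, ratios and isoform shares rest on the deposited transcripts. Sums were rounded, filtered with filterByExpr (minimum count 10, minimum total 15), scaled by TMM and tested in edgeR 4.0.16 (quasi-likelihood, robust, two-sided). The same test was run over transcripts. Methods were also run on simulated counts, with far fewer changed genes than passed here. The simulation held no error of sharing reads between transcripts, so it does not test that error. DESeq2 1.42.0, limma 3.58.1, other scalings, filters, offsets and left-out libraries were alternatives.

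All 9 members were named whatever their values. Transcripts could be named if they held at least 10% of their gene's TPM in a group. From each list up to 3 risers and 3 fallers with the lowest adjusted p could be named. GSR, SLC3A2, GGCT, ATF4 and NFE2L2 were named in any case. Not every transcript or gene that met these rules is given in the text. Further names, such as GSS-209 and CTNS, were taken after their values were seen. Members and lists were chosen with earlier results of these data known. Estimated counts carry counting error and an unmeasured error of sharing reads between transcripts.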

Additional observations from a re-analysis of the deposited data

How the results depend on the processing

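Over 17 other settings or left-out libraries per gene (18 for CBS), CTH, CHAC1, CHAC2, SLC7A11, CBS, MPST, GCLC and GCLM kept their direction and stayed past the threshold. GSS reversed to −0.11 when effective length entered as an offset and to −0.083 with protein-coding transcripts only, ran from 0.047 to 0.47 when a library was left out (past the threshold without control replicate 2), and was 0.46 without transcript GSS-206, an alternative added after seeing the data; the cause was not tested. The number of genes past the threshold ran from 15050 to 15335 when a library was left out and from 10543 (stricter filter, fewer genes tested) to 17011 (no filter) otherwise. With DESeq2, 1 gene of the glutathione outer cycle rose in place of 2 and 0 regulators fell in place of 1 (KEAP1). Other list counts moved by 1: cysteine breakdown lower 6 to 5, transporters lower 2 to 3, transferases lower 11 to 10, melanoma markers higher 3 to 2 and markers of other cell types higher 3 to 4. Of the main isoforms, CHAC2-201 passed with limma on log2(TPM + 0.1) (0.41, adjusted p = 0.0188) and the other 9, CBSL-201 among them, kept their call. No paired analysis was possible because the groups share no replicate number. The members held 295 or more estimated counts in every library, while transcripts such as GSS-209 and CTH-201 were listed at 0 in some.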

Other observations

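Across the 6 libraries, and among the 9940 genes with a symbol and a mean of at least 10 CPM, those whose log2 CPM followed CHAC1 most closely were TRIM41, CPEB4 and ZNF621, and those closest to CTH were METTL2B, ESM1 and NOCT (Pearson r = 1.00 to 2 decimals, over 6 libraries). With only a control and a treated group many genes had such values: 2419 of the 9940 had an r of at least 0.99 with CHAC1 and 2353 with CTH.

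Of 8 tested melanoma and melanocyte markers 3 rose, 3 fell and 2 did not pass. Marker counts here stand beside 34.9% higher and 34.5% lower of all genes tested. S100B fell from 38.6 ± 0.831 to 5.83 ± 1.12 CPM, and PMEL rose from 0.556 ± 0.0505 to 2.05 ± 0.0987 CPM. The summed level of 13 markers of blood, endothelium, epithelium and fibroblasts was 394.5 to 415.8 CPM in controls and 387.0 to 393.5 CPM in treated libraries, most of it KRT18. Of the 8 tested, CD68 (31.2 ± 1.51 to 37.4 ± 1.59 CPM), VWF and KRT5 rose, KRT18, COL1A1 and PDGFRA fell, and 2 did not pass, while 6 of the 13 were under 1 CPM in every library. Their part in the members' changes was not tested.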
